A study of Capra hircus with 9 samples.

Results

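The miR-30 family of the goat submandibular gland was taken as every entry whose number directly after "miR-" was exactly 30, with any letter, arm or ending, which gave 13 of the 2189 mature miRNA entries counted. Of the 13, 11 carry goat names (prefix chi-) and 2, miR-30-x and miR-30-y, carry the family number without a letter. No entry is named chi-miR-30d-5p, and the name miR-30-x does not tell its precursor gene. By arm, the strand of the hairpin precursor from which the mature RNA is cut, 6 are 5p and 7 are 3p entries. Small RNA was sequenced from the gland of 9 healthy female Lubo goats with no treatment and no genetic alteration named: 3 at 1 month, 3 at 12 months and 3 at 24 months of age, each library from its own animal under shared husbandry. Goats are named below by age and label number, which were 1, 2 and 3 for the 1-month group, 3, 4 and 5 for the 12-month group, and 2, 3 and 5 for the 24-month group. A gland is a mix of secretory, duct, stromal and blood-derived cells, so fewer cells of a type and less RNA per cell cannot be told apart.

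As background, miRNAs of the miR-30 family guide Argonaute proteins to messages that pair with the seed at the 5′ end, and the 5p arm is the guide strand for most of the family. In human and mouse, the family is known for holding cells in an epithelial state by restraining Snail and TGF-beta signalling, for limiting autophagy through Beclin 1, and for roles in kidney podocytes and in bone and fat cell differentiation. In the RefSeq gene table for the goat assembly ARS1.2, the family's 6 precursor genes lie as 3 pairs of nearest neighbours among miRNA genes. MIR30E lies with MIR30C, both inside the gene NFYC, and MIR30B with MIR30D, both inside LOC108637533. MIR30F lies with MIR30A, and no gene spans either. No other gene starts and ends between the members of any of the 3 pairs. The build behind the deposited counts is not given in the sources used here, so the table was used for names and neighbours only.

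All 6 entries of the 5p arm share 1 seed, bases 2 to 8, printed in capitals. The sequences are shown because the whole arm reads as 1 targeting group and because some members differ by a single base. They are in the DNA letters of the deposited table, 5′ to 3′:
chi-miR-30e-5p: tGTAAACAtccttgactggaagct
miR-30-x: tGTAAACAtccccgactggaa
chi-miR-30a-5p: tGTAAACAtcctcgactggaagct
chi-miR-30c-5p: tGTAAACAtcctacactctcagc
chi-miR-30b-5p: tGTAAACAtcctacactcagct
chi-miR-30f-5p: tGTAAACAccctacactctcagc
Counting positions from 1 at the 5′ end, chi-miR-30a-5p becomes chi-miR-30e-5p by C13T and miR-30-x by T12C over the bases they share, and chi-miR-30c-5p becomes chi-miR-30f-5p by T9C. None of these changes lies in the seed.

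The 3p arm does not share a seed, and falls into 4 groups by bases 2 to 8:
chi-miR-30e-3p: cTTTCAGTcggatgtttacag
chi-miR-30a-3p: cTTTCAGTcggatgtttgcag
miR-30-y: cTTTCAGTcggatgtttacagtt
chi-miR-30d-3p: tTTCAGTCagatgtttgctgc
chi-miR-30f-3p: cTGGGAGGaggctgtttactct
chi-miR-30b-3p: cTGGGAGGtggatgtttacttc
chi-miR-30c-3p: cTGGGAGAgggttgtttactc
chi-miR-30e-3p, chi-miR-30a-3p and miR-30-y have 1 seed, chi-miR-30f-3p and chi-miR-30b-3p another, and chi-miR-30d-3p and chi-miR-30c-3p 1 each. Read from its first base, chi-miR-30d-3p begins with the seed of chi-miR-30e-3p, so its separate group depends on the 5′ end listed for it. chi-miR-30e-3p becomes chi-miR-30a-3p by A18G. miR-30-y is chi-miR-30e-3p with extra bases at its 3′ end, and is counted here as a member without being separate evidence. No entry outside the family carried any of the 5 seeds, and none was named miR-384, the miRNA that has the miR-30 seed in other mammals. No 2 members have the same sequence, while the rule by which reads that fit more than 1 member were assigned is not given, so members that differ by 1 base are uncertain to that degree.

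Libraries held 8288492 to 13277448 counts, and all 13 members were detected in all 9 libraries, from a lowest count of 27 (chi-miR-30f-3p in 1-month goat 2) upwards. Goat 2 of the 1-month group stood apart: 12.7% of its counts fell on 22 leukocyte marker entries, such as miR-142 and miR-223, against 3.73% and 5.78% in goats 1 and 3 of that age. Its 24 epithelial and 18 gland marker entries took 0.875% and 1.41% of counts, against 3.97 to 5.82% and 6.50 to 8.55% in the other goats of that age, and results are therefore given with and without it. Across ages, in the order 1, 12 and 24 months, the leukocyte list took 3.73 to 12.7%, 0.604 to 0.712% and 0.477 to 0.617%. The epithelial list took 0.875 to 5.82%, 10.3 to 11.9% and 10.7 to 11.8%, and the gland list, which includes miR-148 and miR-375, 1.41 to 8.55%, 14.2 to 16.8% and 16.9 to 17.9%. None of the 6 leukocyte, 8 epithelial or 5 gland families was at 0 in the series. These lists move with age as the miR-30 entries below do or in the opposite direction, and their part in those results was not tested.

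The family as a whole was abundant at every age. It took 5.14, 4.56 and 4.09% of all counts in 1-month goats 1, 2 and 3, 5.35, 7.77 and 6.12% in 12-month goats 3, 4 and 5, and 6.58, 7.83 and 4.93% in 24-month goats 2, 3 and 5. The half-width of the 95% Wilson interval of these shares was at most 0.0176 percentage points, which covers counting error only. The mean was 4.59 ± 0.525% at 1 month, 6.42 ± 1.24% at 12 months and 6.45 ± 1.45% at 24 months (SD, n = 3 each). The 12-month goats all lay above the 1-month goats, and 24-month goat 5 lay below 1-month goat 1. That overlap was absent from the shares of TMM-scaled totals, where 24-month goat 5 stood at 5.55% and the highest 1-month goat, goat 2, at 4.82%. Nearly all of these counts came from the 5p arm, which took 4.50 ± 0.522%, 6.31 ± 1.23% and 6.31 ± 1.44% of all counts. The 7 entries of the 3p arm together took 0.0973 ± 0.00434%, 0.110 ± 0.00936% and 0.133 ± 0.0293%. A sum over members was not tested.

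By mean level, chi-miR-30e-5p led the family and chi-miR-30f-5p was the lowest 5p entry at every age. By mean CPM over the 9 libraries the 5p entries ranked 11 (chi-miR-30e-5p), 18 (miR-30-x), 21 (chi-miR-30a-5p), 40 (chi-miR-30c-5p), 50 (chi-miR-30b-5p) and 86 (chi-miR-30f-5p) among the 2189 entries. The 3p entries ranked 131 (chi-miR-30e-3p) to 465 (chi-miR-30c-3p). Members are RNAs of 21 to 24 bases, and no length scaling was applied. Several neighbours in the order overlapped. miR-30-x and chi-miR-30a-5p overlapped at all 3 ages, and chi-miR-30c-5p and chi-miR-30b-5p did so at 12 and 24 months, while at 1 month the lowest chi-miR-30c-5p value lay above the highest chi-miR-30b-5p value.

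Of the 5p entries, miR-30-x was called higher than at 1 month at both later ages and chi-miR-30b-5p at 24 months, and the other 4 did not pass with all 9 libraries. Levels from here on are counts per 1e+06 counts (CPM) of a library total scaled by edgeR's TMM factors. Log2 fold changes come from edgeR's quasi-likelihood fit over all 9 libraries, with p-values adjusted by Benjamini and Hochberg over the 937 entries tested. The standard error (SE) was derived as the absolute log2 fold change divided by the square root of the F statistic of its test. A change passed at an adjusted p below 0.05.

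chi-miR-30a-5p, known in human cells for repressing Beclin 1, stood at 7909, 812 and 5974 CPM in 1-month goats 1, 2 and 3, 13049.5, 14600.3 and 15886 CPM in 12-month goats 3, 4 and 5, and 17092, 17513 and 13804 CPM in 24-month goats 2, 3 and 5. The later ages did not overlap with 1 month, and 1-month goat 2 was far below the other goats of its age. The means were 4898 ± 3669, 14512 ± 1420.1 and 16136 ± 2031 CPM (SD, n = 3 each). The log2 fold change was 1.57 (SE 0.62) at 12 months against 1 month with an edgeR adjusted p of 0.0866, and 1.72 (SE 0.62) at 24 months against 1 month with an adjusted p of 0.0559, so neither passed. Without 1-month goat 2 the values were smaller and both passed, at 1.04 (SE 0.21, edgeR adjusted p = 0.00915) and 1.20 (SE 0.21, adjusted p = 0.00406). At 24 months it also passed without 1-month goat 1 (adjusted p = 0.0430).

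miR-30-x, which has 1 base changed from chi-miR-30a-5p over its length, stood at 9838, 7576 and 7654 CPM in 1-month goats 1, 2 and 3, 15692, 15969 and 16666 CPM in 12-month goats 3, 4 and 5, and 18470.3, 16626 and 12593 CPM in 24-month goats 2, 3 and 5. All 6 later goats lay above all 1-month goats, and 1-month goat 2 did not stand apart. It rose by 0.95 on the log2 scale at 12 months (SE 0.29, edgeR adjusted p = 0.0450) and by 0.93 at 24 months (SE 0.29, adjusted p = 0.0402), in each case against 1 month. Both calls were close to the threshold. Leaving out 1-month goat 2 kept them, at 0.86 (adjusted p = 0.0212) and 0.84 (adjusted p = 0.0214), and leaving out any 1 of the other 8 libraries ended them (edgeR adjusted p of 0.0544 to 0.409 at 12 months and of 0.0501 to 0.251 at 24 months). Each such fit also recomputed the low-count filter and the TMM factors. Without 24-month goat 2, which is not in the 12-month comparison, miR-30-x was at 0.60 there. The median of all entries then moved from −0.017 to −0.40. A call that ended does therefore not by itself show dependence on the goat left out.

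chi-miR-30b-5p, whose precursor gene neighbours that of miR-30d, stood at 3127, 1759.5 and 2250.2 CPM in 1-month goats 1, 2 and 3, 3626, 4461 and 4940.4 CPM in 12-month goats 3, 4 and 5, and 4879.8, 4818 and 4284 CPM in 24-month goats 2, 3 and 5. The later ages did not overlap with 1 month. The log2 fold change of 0.87 at 12 months did not pass (SE 0.32, edgeR adjusted p = 0.0705), and the rise of 0.97 at 24 months did (SE 0.32, adjusted p = 0.0461). The latter call held without 1-month goat 1 or 2 (adjusted p = 0.0364 and 0.0306) and ended without any 1 of the other 7 libraries (0.0747 to 0.217). Those libraries include the 12-month goats, which are not in this comparison. Without 12-month goat 3 the median of all entries at 24 months was −0.27, against −0.065 with all 9 libraries. That chi-miR-30b-5p passed at 24 and not at 12 months does not show that these ages differ, and the direct comparison gave 0.10 (SE 0.32, adjusted p = 0.998).

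chi-miR-30f-5p, which differs from chi-miR-30c-5p at 1 base, stood at 1073, 98.3 and 1087 CPM in 1-month goats 1, 2 and 3, 1751, 1496 and 1889 CPM in 12-month goats 3, 4 and 5, and 1911, 1839 and 1017 CPM in 24-month goats 2, 3 and 5. Like chi-miR-30a-5p, the product of the neighbouring gene, it was far lower in 1-month goat 2 than in any other library. The values of 1.19 (SE 0.67, edgeR adjusted p = 0.208) and 1.08 (SE 0.67, adjusted p = 0.249) did not pass. Leaving out 1-month goat 2 brought them down to 0.64 and 0.53 (edgeR adjusted p = 0.127 and 0.185). The 24-month goats overlapped with 1 month through goat 5.

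chi-miR-30e-5p, the most abundant member, stood at 16312, 31086 and 12426 CPM in 1-month goats 1, 2 and 3, 17725, 31473 and 21579 CPM in 12-month goats 3, 4 and 5, and 20460.0, 33497 and 17959 CPM in 24-month goats 2, 3 and 5. One goat at each age was high, namely 1-month goat 2, 12-month goat 4 and 24-month goat 3, and the 3 ages overlapped. The log2 fold changes of 0.24 (SE 0.42, edgeR adjusted p = 0.686) and 0.27 (SE 0.42, adjusted p = 0.678) against 1 month did not pass. Without 1-month goat 2 they were 0.69 and 0.72. The levels then did not overlap with 1 month in TMM-scaled CPM but did in unscaled CPM, and neither fold change passed (edgeR adjusted p = 0.150 and 0.131). Of the high libraries, 12-month goat 4 had 0.247% of its counts on 17 muscle marker entries, against 0.0155 to 0.0611% in the other 8 libraries, 24-month goat 3 among them at 0.0296%.

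chi-miR-30c-5p, known in mouse liver for lowering lipoprotein secretion, stood at 4367, 5815 and 3412 CPM in 1-month goats 1, 2 and 3, 4198, 4732 and 4159 CPM in 12-month goats 3, 4 and 5, and 4693, 6838 and 4403 CPM in 24-month goats 2, 3 and 5. The ages overlapped, and the highest values were those of 24-month goat 3 and 1-month goat 2, both also high for chi-miR-30e-5p. The log2 fold changes were −0.055 (SE 0.33, edgeR adjusted p = 0.917) at 12 months and 0.23 (SE 0.33, adjusted p = 0.636) at 24 months. Neither passed, and with 1-month goat 2 left out they were 0.14 and 0.43 (edgeR adjusted p = 0.674 and 0.203).

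**Figure D1:**
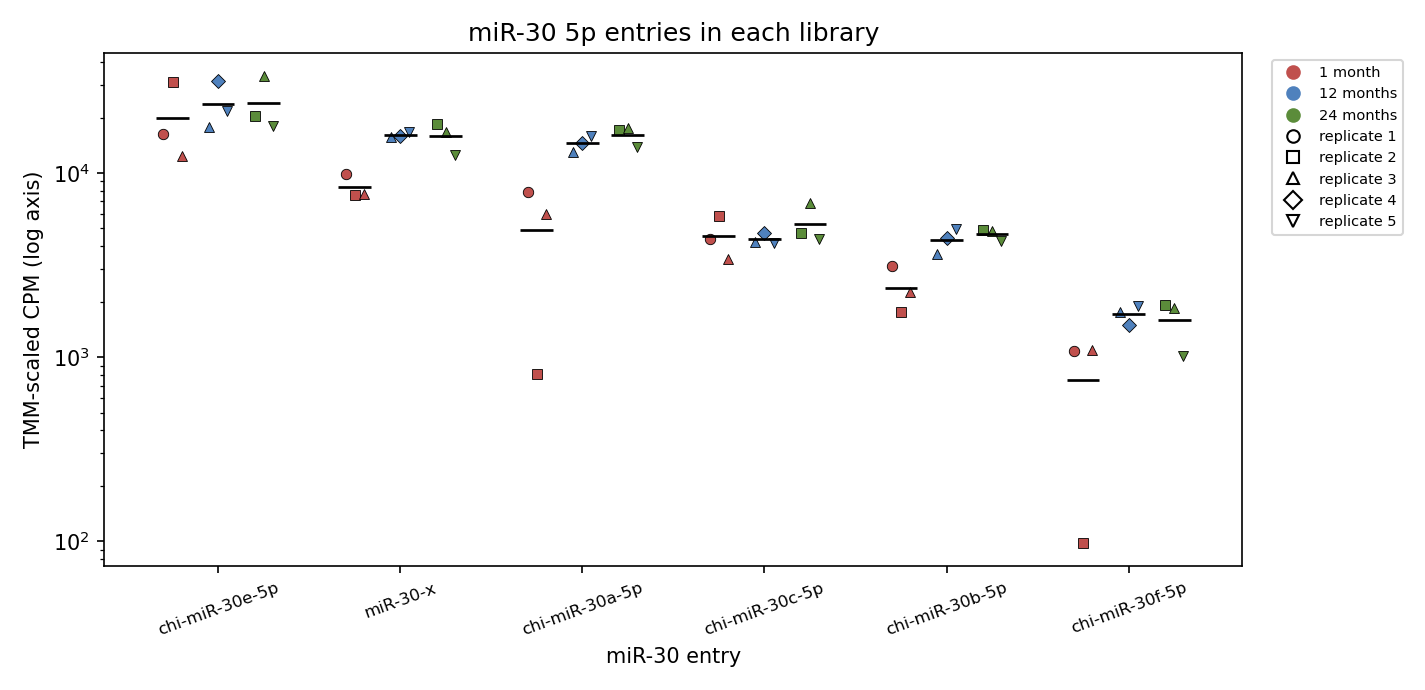
Level of the 6 miR-30 5p entries in each of the 9 libraries, in TMM-scaled CPM on a log axis, with colour for age, symbol for the replicate number and a bar at each mean (n = 3). chi-miR-30a-5p and chi-miR-30f-5p stand at 812 and 98.3 CPM in 1-month goat 2, while chi-miR-30e-5p is high there at 31086 CPM.

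Among the 3p entries, the passenger strands for most of the family, chi-miR-30b-3p showed the clearest difference with age. It stood at 7.12, 5.01 and 5.93 CPM in 1-month goats 1, 2 and 3, 14.7, 12.2 and 18.7 CPM in 12-month goats 3, 4 and 5, and 20.2, 20.7 and 19.9 CPM in 24-month goats 2, 3 and 5, with counts of 63 to 210 per library. Every later goat lay above every 1-month goat, and every 24-month goat above every 12-month goat. The means were 6.02 ± 1.06, 15.2 ± 3.29 and 20.3 ± 0.391 CPM (SD, n = 3 each). It rose by 1.33 on the log2 scale at 12 months (SE 0.36, edgeR adjusted p = 0.0272) and by 1.75 at 24 months (SE 0.36, adjusted p = 0.00823), and was the member that also passed the test of any difference between the 3 ages (adjusted p = 0.0158), where 20.5% of all entries passed. The 24-month call held without each of the 9 libraries in turn (edgeR adjusted p of 0.00543 to 0.0470). The 12-month call held without 1-month goat 1 or 2 (0.0440 and 0.0217) and ended without 1-month goat 3 or any 1 of the 6 later libraries (0.0634 to 0.281). Here too the later libraries include the 24-month goats, which are not in the 12-month comparison. Without 24-month goat 2 the 12-month value was 0.997, with the median of all entries at −0.40, against −0.017 with all 9 libraries. Between 24 and 12 months the log2 difference of chi-miR-30b-3p, 0.42 (SE 0.35), did not pass (edgeR adjusted p = 0.998).

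chi-miR-30d-3p, from the gene next to that of miR-30b, stood at 62.0, 74.5 and 52.8 CPM (1 month), 110.5, 117 and 129 CPM (12 months) and 119, 111 and 112 CPM (24 months), in the order of the goat numbers given above. The later ages did not overlap with 1 month, yet the log2 fold changes of 0.91 (SE 0.32, edgeR adjusted p = 0.0610) and 0.85 (SE 0.32, adjusted p = 0.0624) did not pass. Both passed without 1-month goat 2, at 1.03 (adjusted p = 0.0154) and 0.97 (adjusted p = 0.0167).

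chi-miR-30a-3p, the other arm of chi-miR-30a-5p, stood at 361, 48.6 and 321 CPM (1 month), 423, 421 and 445 CPM (12 months) and 473, 735 and 662 CPM (24 months). It was low in 1-month goat 2, as its 5p arm was, and every 24-month goat lay above every 12-month goat. The log2 fold changes against 1 month were 0.82 (SE 0.58, edgeR adjusted p = 0.313) at 12 months and 1.35 (SE 0.59, adjusted p = 0.102) at 24 months. Without 1-month goat 2 the 24-month value was 0.85 and passed (adjusted p = 0.0307), and the 12-month value was 0.31 and did not (adjusted p = 0.365).

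chi-miR-30f-3p stood at 19.5, 2.15 and 17.2 CPM (1 month), 26.0, 24.4 and 37.8 CPM (12 months) and 30.1, 26.8 and 35.6 CPM (24 months), again with its lowest value in 1-month goat 2. Its log2 fold changes of 1.19 (SE 0.64, edgeR adjusted p = 0.189) and 1.25 (SE 0.64, adjusted p = 0.160) did not pass. With 1-month goat 2 left out they were 0.66 and 0.73 (edgeR adjusted p = 0.138 and 0.0999).

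chi-miR-30e-3p stood at 314, 815 and 295 CPM (1 month), 409, 449.7 and 470.2 CPM (12 months) and 363, 660.3 and 476 CPM (24 months), and its longer form miR-30-y at 71.2, 92.6 and 58.6 CPM (1 month), 72.9, 89.4 and 83.6 CPM (12 months) and 83.5, 166 and 140.3 CPM (24 months). Both had 1-month goat 2 above the other goats of that age and overlapped between ages. For chi-miR-30e-3p the log2 fold changes against 1 month were −0.10 at 12 months (SE 0.44) and 0.074 at 24 months (SE 0.44), and for miR-30-y 0.14 (SE 0.37) and 0.81 (SE 0.37). The 4 edgeR adjusted p-values ran from 0.121 to 0.933. Leaving out 1-month goat 2 gave 0.52 and 0.69 (edgeR adjusted p = 0.194 and 0.0878) for chi-miR-30e-3p, and 0.31 and 0.98 (edgeR adjusted p = 0.482 and 0.0512) for miR-30-y. The miR-30-y count was 0.114 to 0.295 of that of chi-miR-30e-3p, lowest in 1-month goat 2, and all 3 values at 24 months lay above all the others.

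chi-miR-30c-3p, the least abundant member, stood at 9.17, 16.3 and 7.13 CPM (1 month), 10.2, 12.9 and 13.6 CPM (12 months) and 10.2, 13.9 and 11.6 CPM (24 months). The ages overlapped, the highest value was that of 1-month goat 2, and neither log2 fold change passed (0.17 with SE 0.41 and edgeR adjusted p of 0.777, and 0.13 with SE 0.41 and adjusted p of 0.845). Leaving out 1-month goat 2 gave 0.57 and 0.53 (edgeR adjusted p = 0.210 and 0.230).

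**Figure D2:**
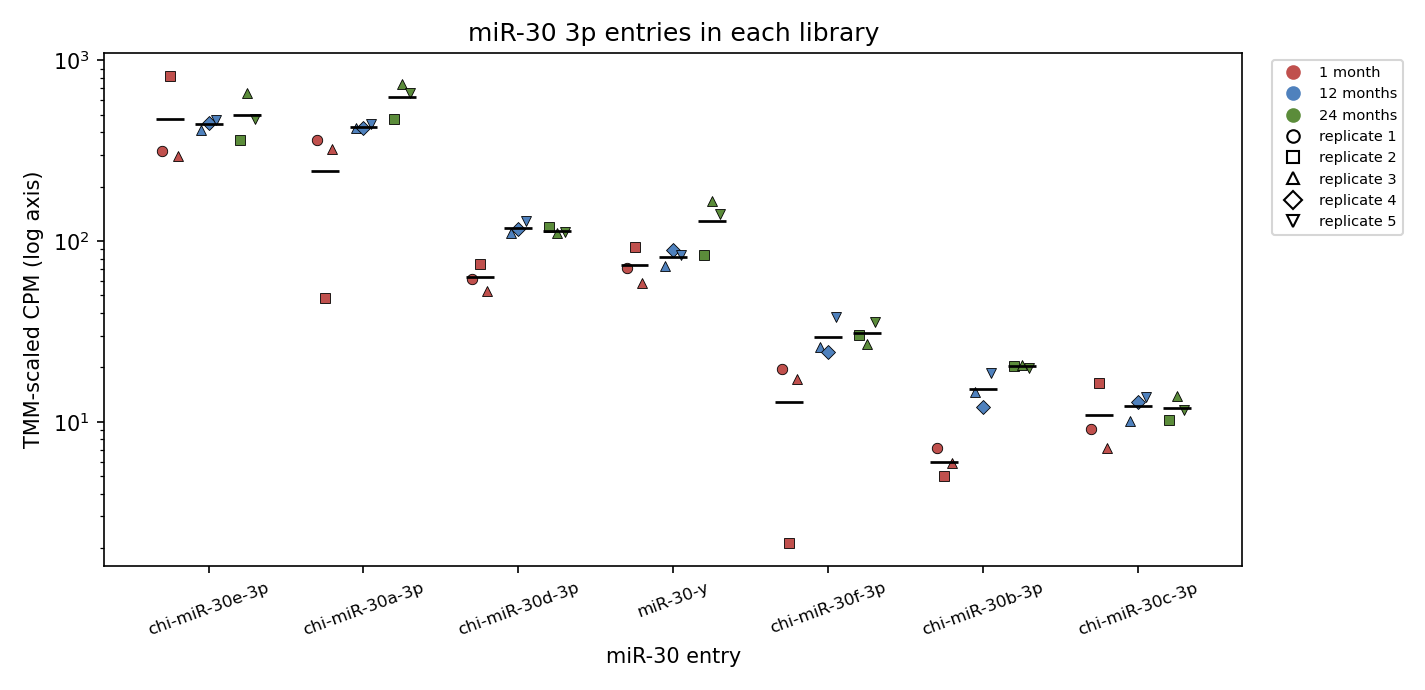
Level of the 7 miR-30 3p entries in each of the 9 libraries, in TMM-scaled CPM on a log axis, with colour for age, symbol for the replicate number and a bar at each mean (n = 3). chi-miR-30b-3p goes from a mean of 6.02 CPM at 1 month to 20.3 at 24 months, and chi-miR-30a-3p and chi-miR-30f-3p have their lowest value in 1-month goat 2.

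All 13 members passed the filter on low counts. Between 1 and 12 months edgeR called 2 of them higher and 0 lower, chi-miR-30b-3p and miR-30-x, where 5.98% of the 937 entries tested were called higher and 13.2% lower. Of the members, 11 of 13 had a log2 fold change above 0 (8 to 13 over the alternative settings, 10 with library size alone) and their median was 0.87, against 49.6% of all entries above 0 and a median of −0.017. Between 1 and 24 months 3 were called higher and 0 lower, the same 2 and chi-miR-30b-5p, where 8.75% of all entries were called higher and 17.5% lower. All 13 were above 0 in this fit, while chi-miR-30e-3p and chi-miR-30c-3p were below 0 with library size alone. Over the settings that used all libraries of both ages 10 to 13 were above 0, and on leaving out 1 library 9 to 13. The median of the members was 0.93, against −0.065 for all entries, of which 46.9% were above 0. These comparisons share the 1-month goats. The 13 members are not independent units either, here or in the counts below, as they include both arms of the same precursors and products of neighbouring genes.

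Without 1-month goat 2, edgeR called 4 of 13 members higher at 12 months (chi-miR-30a-5p, chi-miR-30d-3p, chi-miR-30b-3p and miR-30-x), where 8.69% of all entries were called higher. At 24 months it called 6 higher (those 4, chi-miR-30b-5p and chi-miR-30a-3p), where 11.5% were. None was lower in either comparison, and all 13 log2 fold changes were above 0 in both.

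In level alone, 8 of 13 members were higher in every 12-month goat than in every 1-month goat, where 26.3% of all entries were, and 7 of 13 were so at 24 months, where 21.3% were. None was lower without overlap, against 22.2% and 25.8% of all entries. With 1-month goat 2 left out, 12 of 13 were higher at each age in TMM-scaled CPM, against 31.6% and 27.3% of all entries. That count depended on the scaling, and in unscaled CPM it was 7 of 13 at 12 months and 6 of 13 at 24 months, against 20.2% and 17.0%. With all goats and without TMM scaling they were 6 of 13 at 12 months, against 18.8%, and 6 of 13 at 24 months, against 15.4%. chi-miR-30a-5p, chi-miR-30d-3p, chi-miR-30f-3p and chi-miR-30b-3p were clear of 1 month on both scales at both ages.

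Scaling moved the median of all entries from −0.017 with TMM to −0.20 with library size alone between 1 and 12 months, a shift that the members shared. Relative to the median of all entries, the median of the members lay between 0.84 and 1.13 at 12 months and between 0.94 and 1.34 at 24 months over the 11 settings that used all libraries of both ages. On leaving out 1 library it ran from 0.59 to 1.10 and from 0.84 to 1.20. Both lowest values came without 1-month goat 2, against 0.88 and 0.99 with all 9 libraries. With library size alone, chi-miR-30b-3p had an edgeR adjusted p of 0.0594 at 12 months and 0.0156 at 24 months, and miR-30-x of 0.131 and 0.150.

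**Figure D3:**
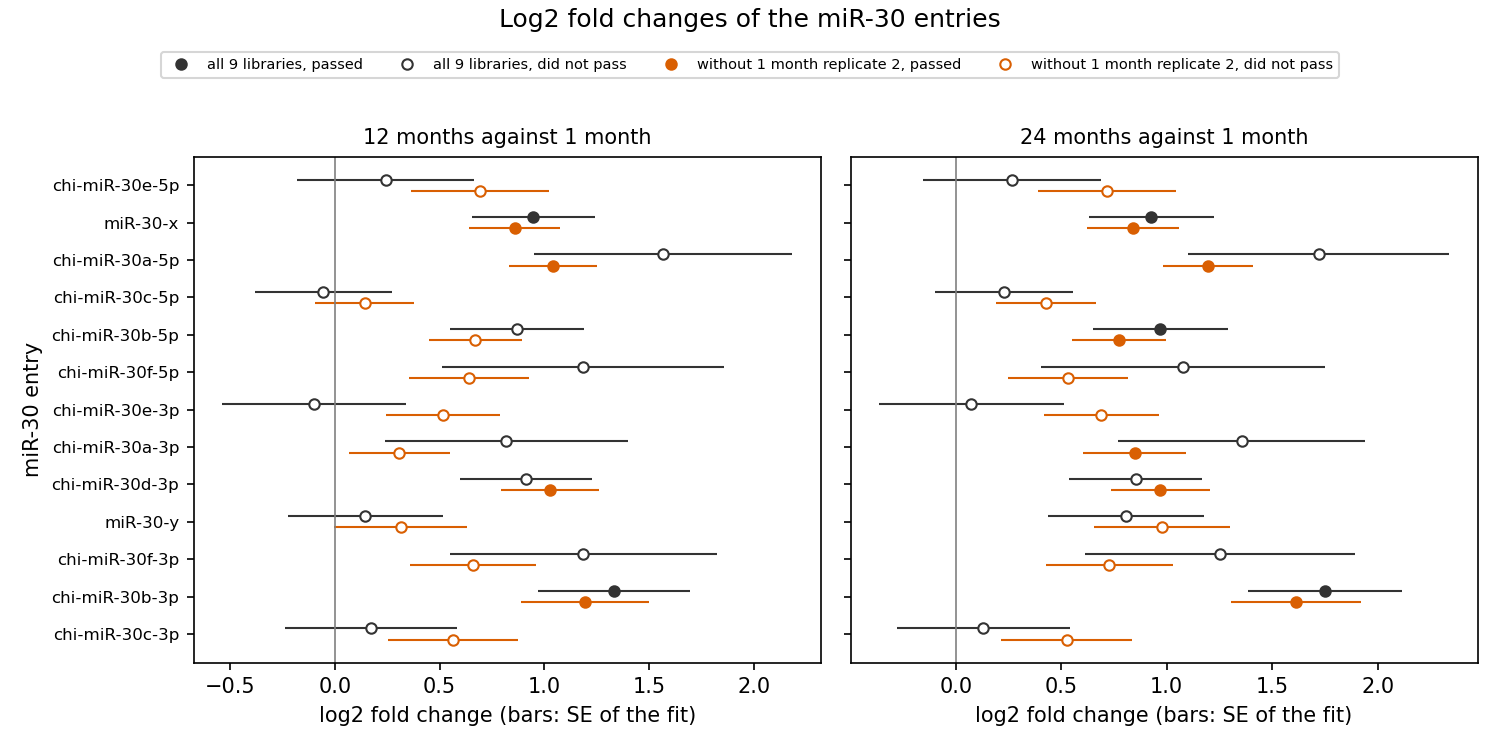
Log2 fold change of each miR-30 entry at 12 and 24 months against 1 month from edgeR, over all 9 libraries (dark) and without 1-month goat 2 (orange). Bars are the SE derived from the F statistic of the test. Filled points passed an adjusted p of 0.05. chi-miR-30a-5p moves from 1.57 to 1.04 at 12 months with a shorter bar, and chi-miR-30e-5p from 0.24 to 0.69.

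Between 12 and 24 months the family was not seen to change. The log2 differences ran from −0.11 (chi-miR-30f-5p) to 0.66 (miR-30-y), all with an edgeR adjusted p of 0.998, and the median was 0.10, against −0.029 over all entries. edgeR, DESeq2 and limma voom called 0 of 937 entries, with 40, 42 and 14 at an unadjusted p under 0.05 and 0 members among them. The 2 members whose 24-month goats all lay above the 12-month goats were chi-miR-30a-3p and chi-miR-30b-3p, where 6.08% of all entries did so. The SE of single members ran from 0.29 to 0.66 with 3 goats per age, so differences of that size were not detectable. Over all entries, larger differences could often be missed too. Counts were simulated for 24 months against 12 months with 200 of 937 entries changed. The share recovered was 8.36% at 2-fold, 41.8% at 4-fold and 77.6% at 8-fold. These shares are averages over entries of every level and spread, and were not computed for the miR-30 members.

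The make-up of the family differed most in 1-month goat 2. There chi-miR-30e-5p held 64.5% of the miR-30 counts and chi-miR-30a-5p 1.69%. In the other 8 libraries chi-miR-30e-5p held 29.8 to 42.6% and chi-miR-30a-5p 17.8 to 24.9%. Without that goat, chi-miR-30a-5p held 18.2 and 17.8% at 1 month, below the 19.8 to 24.9% of all 6 later goats. chi-miR-30c-5p held 10.05, 12.1 and 10.2% at 1 month, above the 6.27 to 8.25% of the later goats. These shares do not depend on library scaling, and were not tested.

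**Figure D4:**
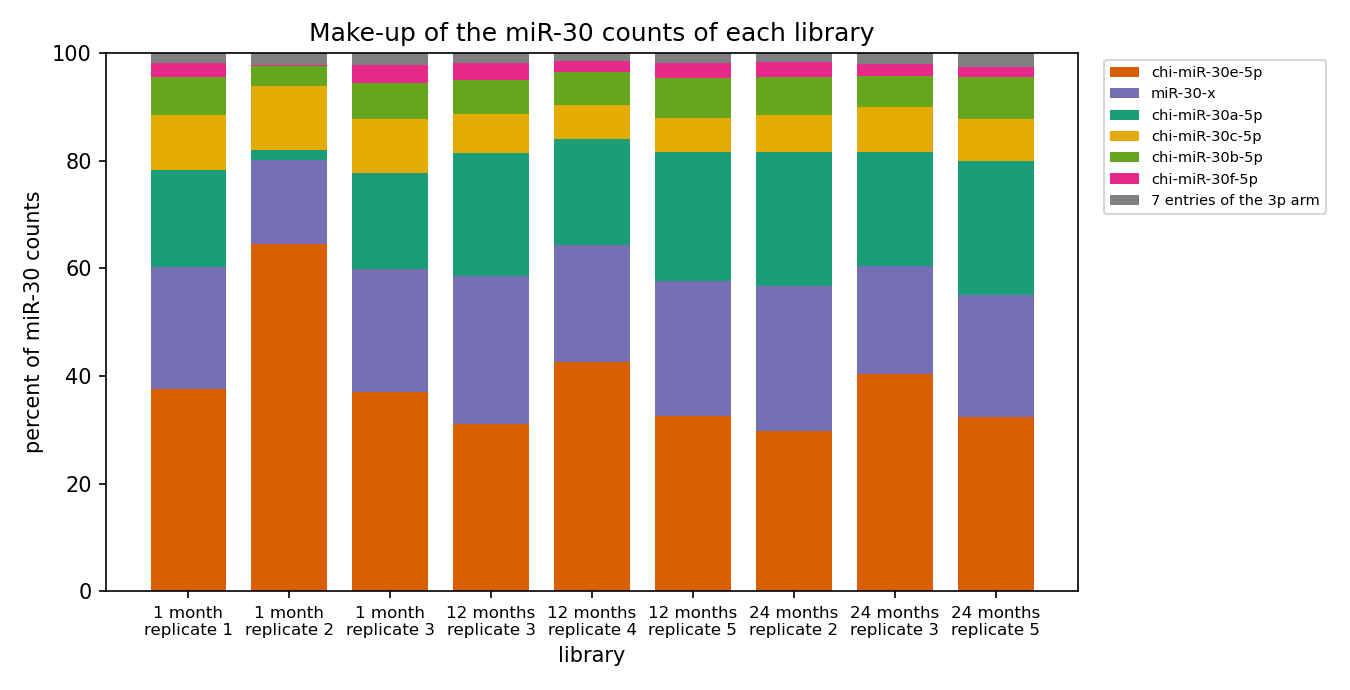
Share of the miR-30 counts of each library held by each 5p entry and by the 7 entries of the 3p arm together, in percent. In 1-month goat 2 chi-miR-30e-5p takes 64.5% and chi-miR-30a-5p 1.69%, while in the other 8 libraries chi-miR-30a-5p takes at least 17.8%.

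In 1-month goat 2 the members differed from the other goats of that age in opposite directions. Against the mean of 1-month goats 1 and 3, its level of chi-miR-30a-5p was 0.117 of it in CPM, that of chi-miR-30a-3p 0.142, that of chi-miR-30f-5p 0.0910 and that of chi-miR-30f-3p 0.117. All 4 products of the pair MIR30A and MIR30F were thus low together. The 4 goat-named products of the pair MIR30E and MIR30C were high together, at 2.16 for chi-miR-30e-5p, 2.67 for chi-miR-30e-3p, 1.49 for chi-miR-30c-5p and 2.001 for chi-miR-30c-3p. The goat-named products of MIR30B and MIR30D were at 0.654 for chi-miR-30b-5p, 0.768 for chi-miR-30b-3p and 1.299 for chi-miR-30d-3p, with miR-30-x at 0.866. Whether this pair moved together cannot be told. chi-miR-30b-5p stood at 3127 and 2250 CPM in goats 1 and 3, and chi-miR-30b-3p had a count of 63 in goat 2. All these ratios rest on 1 library. The leukocyte, epithelial and gland markers given above move with it. So do 20 mesenchymal marker entries, at 1.66% of its counts against 10.7 and 13.6% in goats 1 and 3, and 4 endothelial marker entries, at 0.441% against 1.01 and 1.45%. The part of these lists in the result was not tested.

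The same library stood out in some of the ratios between members. The count ratio of chi-miR-30a-5p to chi-miR-30f-5p ran from 5.50 to 13.6 over the 9 libraries and that of chi-miR-30e-5p to chi-miR-30c-5p from 3.64 to 6.65, with 1-month goat 2 inside both ranges. On the 3p arm chi-miR-30a-3p to chi-miR-30f-3p ran from 11.8 to 27.4, and chi-miR-30e-3p to chi-miR-30c-3p from 34.3 to 49.98, with 1-month goat 2 highest in the latter. Across pairs, chi-miR-30a-5p to chi-miR-30e-5p was 0.0261 in 1-month goat 2 and 0.464 to 0.835 in the other 8 libraries, and chi-miR-30a-3p to chi-miR-30e-3p was 0.0596 in goat 2 and 0.936 to 1.39 in the others. The wide range of both ratios across pairs rests on that library, and in the other 8 they varied by no larger a factor than chi-miR-30a to chi-miR-30f did on either arm. The ratio of chi-miR-30d-3p to chi-miR-30b-3p, also neighbours, ran from 5.35 to 14.9. It was highest in 1-month goat 2, against 8.70 and 8.90 in 1-month goats 1 and 3. miR-30-x to chi-miR-30b-5p ran from 2.94 to 4.33. The miR-30a and miR-30e entries of each arm differ by a single base, at C13T and A18G. In 1-month goat 2 the counts of chi-miR-30a-5p and chi-miR-30a-3p came to 2.61% and 5.96% of those of the chi-miR-30e arms, so in that library reads of miR-30e counted as miR-30a can have been no larger a share than this.

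The ratio of the arms differed between precursors. The 5p to 3p count ratio ran from 16.7 to 36.1 for chi-miR-30a, from 37.7 to 70.0 for chi-miR-30e and from 28.6 to 68.5 for chi-miR-30f. It ran from 215 to 439 for chi-miR-30b and from 305 to 493 for chi-miR-30c. The chi-miR-30e ratio leaves out miR-30-y, the longer form of chi-miR-30e-3p, which had 0.114 to 0.295 of the count of the latter. Adding miR-30-y would lower that ratio, so the ranges given do not show chi-miR-30e to lie apart from chi-miR-30a. The 3p arms of b, c and f have other seeds than those of a and e, as printed above. For chi-miR-30b the ratio was 389.8 ± 44.9 at 1 month, 293 ± 64.7 at 12 months and 229.7 ± 13.3 at 24 months (SD, n = 3 each), with all 24-month goats below all goats of both earlier ages. For chi-miR-30a it was 19.1 ± 2.62, 33.8 ± 2.55 and 26.9 ± 8.11, with all 12-month goats above all 1-month goats and a wide spread at 24 months. The ratios of chi-miR-30c, chi-miR-30e and chi-miR-30f overlapped between 1 month and both later ages. A ratio of read counts is no molar ratio.

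**Figure D5:**
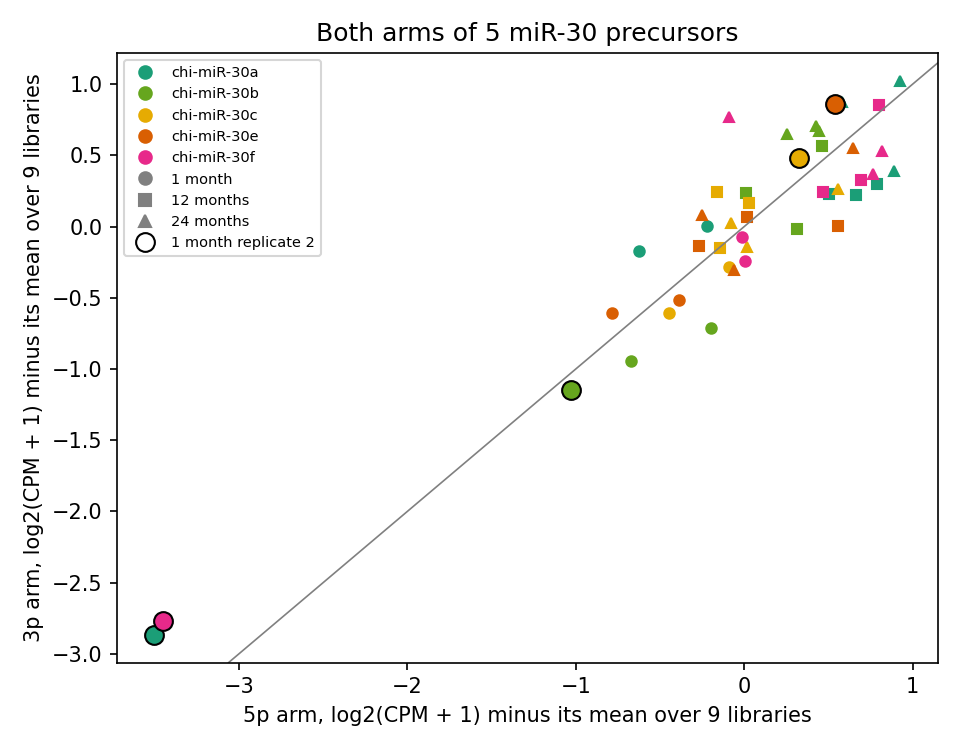
Level of the 3p arm against that of the 5p arm for 5 miR-30 precursors, each as log2(CPM + 1) minus its own mean over the 9 libraries, with shape for age and large outlined points for 1-month goat 2. The grey line marks equal deviation of both arms, and 1-month goat 2 lies far to the lower left for chi-miR-30a and chi-miR-30f and to the upper right for chi-miR-30c and chi-miR-30e.

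The profile over the 9 libraries was compared with those of the goat-named entries outside the family with a mean of at least 100 CPM, as the root mean square difference of centred log2(CPM + 1) values, where a smaller value is a closer profile. The 3 closest to chi-miR-30a-5p were chi-miR-148a-5p (0.186), chi-miR-148a-3p (0.278), chi-miR-200a (0.297), against a median of 1.42 over the candidates, and its closest relative within the family was chi-miR-30f-5p (0.334). Without 1-month goat 2 those entries held ranks 2, 3 and 1. Closest to chi-miR-30b-5p were chi-miR-101-3p (0.178), chi-miR-500-3p (0.245), chi-miR-1468-5p (0.291), against a median of 0.823, with miR-30-x closest within the family (0.177). With that goat left out, these held ranks 1, 6 and 16. For chi-miR-30b-3p they were chi-miR-101-3p (0.301), chi-miR-29a-3p (0.315), chi-miR-27b-3p (0.357), with chi-miR-30b-5p closest within the family (0.300), and without that goat they held ranks 9, 10 and 16. For chi-miR-30c-5p they were chi-miR-423-5p (0.249), chi-miR-194 (0.266), chi-miR-3431-5p (0.280), with chi-miR-30c-3p closest within the family (0.209), and ranks 8, 5 and 17 without that goat. These are descriptions over 9 shared libraries, without a test.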

How the data were processed

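The deposited table by the authors holds raw read counts for 2189 mature miRNA entries in 9 libraries, with each entry's sequence, per the file headers. Total RNA was taken with TRIzol, per the labels' protocols. FastQC and Bowtie are listed without versions, per the submitters' processing notes. Which build, miRNA release and rule for shared reads were used is not given in the sources consulted.

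Ages and replicate numbers came from the labels. A low-count filter in edgeR (10 counts, total of 15) retained 937 entries, which held at least 99.94% of each library's counts. edgeR 4.0.16 (R 4.3.3) fitted 1 mean per age to all 9 libraries with TMM factors, testing by robust quasi-likelihood on 6 residual degrees of freedom, and Benjamini-Hochberg adjustment used a threshold of 0.05. Each goat was a separate animal. In simulated counts for 12 months against 1 month, with 200 of 937 entries changed, the share found was 11.0% at 2-fold, 55.5% at 4-fold and 80.3% at 8-fold. Alternatives were other scalings and filters, DESeq2 1.42.0, voom from limma 3.58.1, only the libraries of the ages compared, merged identical sequences, a replicate block and leaving out each library.

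All members are named. Profiles closest to the 4 main members were the 3 smallest differences among goat-named entries with a mean of at least 100 CPM. Members, lists and tests were chosen with earlier results of these data known.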

Additional observations from a re-analysis of the deposited data

How the results depend on the processing

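The number of members called depended on the setting in the comparisons with 1 month, and no setting called a member lower. At 12 months, where 2 of 13 were reported, DESeq2 called 5 and limma voom 4, DESeq2 size factors, no filter and a minimum count of 50 called 1 each, and library size alone, only the libraries of both ages, identical sequences merged and the replicate block called 0. At 24 months, where 3 were reported, the upper quartile and DESeq2 called 5, library size alone, no filter, a minimum count of 50, only the libraries of both ages and identical sequences merged called 1, and the replicate block 0. Leaving out 1 library gave 0 to 4 members at 12 months and 1 to 6 at 24 months, with 83 to 218 and 116 to 255 of all entries, and 0 to 2 between 12 and 24 months. Leaving out a library also let the filter keep 967 to 1012 entries, and the median of all entries at 12 months then ran from −0.45 to 0.071. Of all entries, reported at 180, 0 and 246 for 12 against 1, 24 against 12 and 24 against 1 month, DESeq2 called 285 at 12 months, no filter 5 between 12 and 24 months, and the replicate block 4 at 12 and 71 at 24 months.

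Replicate numbers name different goats and do not pair them. Same-numbered goats had correlations of deviations of −0.21 to 0.18, and differently numbered goats of −0.33 to 0.29. With 3 goats per age these values could neither show nor exclude a pairing. The replicate block left 2 residual degrees of freedom.

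Members reported near 0 changed sign in some settings, with no call in either direction and the cause not tested. chi-miR-30e-5p at 12 months (reported 0.24) was at −0.033 with only the libraries of both ages, −0.045 with identical sequences merged. chi-miR-30c-5p at 12 months (reported −0.055) was at 0.086 with the upper quartile, 0.049 with the replicate block. chi-miR-30e-3p at 12 months (reported −0.10) was at 0.057 with the upper quartile, 0.066 with limma voom. miR-30-y at 12 months (reported 0.14) was at −0.022 with library size alone, −0.074 with no filter, −0.029 with a minimum count of 50, −0.13 with only the libraries of both ages, −0.16 with identical sequences merged, −0.13 with the replicate block. chi-miR-30c-3p at 12 months (reported 0.17) was at −0.047 with no filter, −0.091 with only the libraries of both ages, −0.11 with identical sequences merged. chi-miR-30c-5p at 24 months (reported 0.23) was at −0.022 with no filter. chi-miR-30e-3p at 24 months (reported 0.074) was at −0.0045 with DESeq2 size factors, −0.11 with library size alone, −0.18 with no filter, −0.053 with a minimum count of 50, −0.0045 with DESeq2, −0.037 with identical sequences merged, −0.023 with the replicate block. chi-miR-30c-3p at 24 months (reported 0.13) was at −0.074 with library size alone, −0.12 with no filter. On leaving out 1 library the values ran from −0.063 to 0.69 for chi-miR-30e-5p at 12 months, −0.40 to 0.14 for chi-miR-30c-5p at 12 months, −0.49 to 0.52 for chi-miR-30e-3p at 12 months, −0.25 to 0.31 for miR-30-y at 12 months, −0.28 to 0.57 for chi-miR-30c-3p at 12 months, −0.12 to 0.72 for chi-miR-30e-5p at 24 months, −0.083 to 0.43 for chi-miR-30c-5p at 24 months, −0.25 to 0.69 for chi-miR-30e-3p at 24 months, −0.070 to 0.53 for chi-miR-30c-3p at 24 months. No other log2 fold change of a member against 1 month changed sign. The mean share of the family was 4.17, 6.57 and 6.90% of TMM-scaled totals at 1, 12 and 24 months, each within 1 SD of the reported mean. Depth was not the limit for the 5p entries, with at least 1235 counts per library, while chi-miR-30f-3p, chi-miR-30b-3p and chi-miR-30c-3p had as few as 27, 63 and 79.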
